A study of Mus musculus with 2 samples.

Results

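The peroxisome proliferator-activated receptors (PPARs), their retinoid X receptor (RXR) partners and the PGC-1 coactivators were examined, with the corepressor gene Ncor1 and the Mediator subunit gene Med1, in RNA sequencing of cultured mouse liver cells. The members were taken by gene symbol from a fixed list of 10 genes, and all 10 were among the 23284 genes of the deposited tables. The control group was C57BL/6 primary hepatocytes infected with control lentivirus (Lenti-sh Ctl), and the other group was the same kind of cells given a lentivirus whose shRNA targets JMJD3, a histone demethylase (Lenti-sh JMJD3). Each group was 1 library made from the pooled cells of 5 mice, infected 24 h after plating, kept for 48 h, and then given 5 mM glucose and 10 µM forskolin for 6 h in both groups as an imitation of fasting. Forskolin activates adenylyl cyclase, so both libraries come from stimulated cells, and no unstimulated or uninfected culture was used here. The series title names JMJD3 and mitochondrial fatty acid oxidation, and the comparison asks how transcripts of the receptors and coactivators that govern this pathway differ when JMJD3 is reduced.

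PPARs are nuclear receptors that bind fatty acids and their derivatives and sit on DNA as heterodimers with an RXR. PPARalpha drives fatty acid oxidation in the fasted liver, PPARdelta is widely expressed, and PPARgamma is best known for fat cell differentiation and lipid storage. PGC-1alpha and PGC-1beta are coactivators that dock on such receptors, and PGC-1alpha is a classic target of cyclic AMP in the fasted liver. NCoR1 carries the histone deacetylase HDAC3 to receptors without an activating ligand, and MED1 is the Mediator subunit that links ligand-bound receptors to RNA polymerase II.

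The control library held 11099562 counts and the knockdown library 18334366, a 1.65-fold difference in depth. Neither group has a replicate, so the intervals given are exact 95% intervals of the counts, they cover counting error only, and no test of the conditions could be made. Levels are CPM, counts divided by the TMM-scaled library size, and a gene was taken as measured when its mean over both libraries was at least 1 CPM. A gene was called higher or lower when its ratio, knockdown library over control library, differed from 1 by 1.5-fold or more and the interval left 1 out. Kdm6b, which encodes JMJD3, stood at 90.7 CPM in control and 33.0 CPM in the knockdown library, a log2 ratio of -1.46 (-1.61 to -1.31). Of the 5 hepatocyte markers, Alb had 1519 and 794 CPM and Hnf4a 362 and 244 CPM, and the poorly counted Apoa1 3.29 and 2.93 CPM, and all 5 had ratios below 1. The summed level of the 5 markers was 2124 CPM in control and 1170 CPM in the knockdown library. In bulk RNA, fewer cells of a type and less RNA per cell cannot be told apart.

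Among the PPAR genes, Pparg was higher in the knockdown library, while Ppara and Ppard did not pass the rule of size. Pparg occupies 115311239 to 115440419 of chromosome 6 (plus strand, mm9 as for all positions of genes here) and has 9 exons with 1984 bp of exonic sequence. It had 52 counts in control (4.63 CPM, interval 3.46 to 6.07) and 162 in the knockdown library (8.95 CPM, 7.62 to 10.4). These intervals did not overlap, and the ratio was 1.93-fold, a log2 ratio of 0.95 (0.49 to 1.43). Of all measured genes, 91.9% had a lower ratio. Ppara occupies 85565994 to 85637281 of chromosome 15, plus strand, and has 9 exons. It had 130 counts in control (11.6 CPM) and 177 in the knockdown library (9.78 CPM), and the interval of its log2 ratio of -0.24 ran from -0.58 to 0.10. Ppard, at 28369699 to 28438414 of chromosome 17, plus strand, with 8 exons, had 346 and 492 counts, or 30.8 and 27.2 CPM. Its log2 ratio of -0.18 had an interval of -0.38 to 0.02. Both intervals included 0, and this changed with the processing. With library totals or upper-quartile factors the interval of Ppard ran from -0.42 to -0.01 or from -0.43 to -0.03. With a trend of the ratio with exonic length removed, given with Ncor1, Ppard was at -0.23 (-0.43 to -0.03) and Ppara at -0.58 (-0.91 to -0.24), and neither passed the rule of size.

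Per exonic length, Ppard was the most abundant PPAR transcript in both libraries and Ppara the least. In TPM, which sets counts per exonic length to the same total in each library and was computed here from the deposited lengths, the control library had 22.3 for Ppard, 5.43 for Pparg and 3.58 for Ppara. The knockdown library had 21.2 for Ppard, 11.3 for Pparg and 3.26 for Ppara. Pparg thus made up 17.4% of the summed PPAR level in control and 31.6% in the knockdown library, and Ppara 11.4% and 9.11%. The Pparg and Ppara intervals overlapped in control and were apart in the knockdown library. The ratio of Ppara to Pparg, which does not depend on the scaling between libraries, was 0.437 of its control value (interval 0.291 to 0.653). The ratio of Ppara to Ppard was 0.958 of its control value (0.729 to 1.26). TPM rests on the gene models: Ppara carries 7528 bp of exonic sequence and Pparg 1984 bp, and how much of each model these cells transcribe was not tested.

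Markers of other cells that can express Pparg are given here beside it. Of 5 adipocyte markers, 0 were measured, with summed levels of 0.0890 CPM in control and 0.110 CPM in the knockdown library, and Adipoq, Plin1 and Lep were at 0 counts in both. Of 6 macrophage markers present in the tables, 5 were measured and 0 passed, with sums of 25.6 and 27.6 CPM and Clec4f at 0 counts in both. Stellate cell and fibroblast markers had 3 of 5 measured genes lower and sums of 120 and 103 CPM, and endothelial markers had 2 of 5 lower and sums of 38.7 and 30.9 CPM. Cholangiocyte markers had 3 of 4 higher, Krt7, Krt19 and Sox9, and sums of 178 and 272 CPM, though only Krt7 passed with library totals or upper-quartile scaling. These lists are short, and of all measured genes 15.3% were higher and 12.8% lower by the same rule. The part of these cells in the Pparg difference was not tested.

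**Figure D1:**
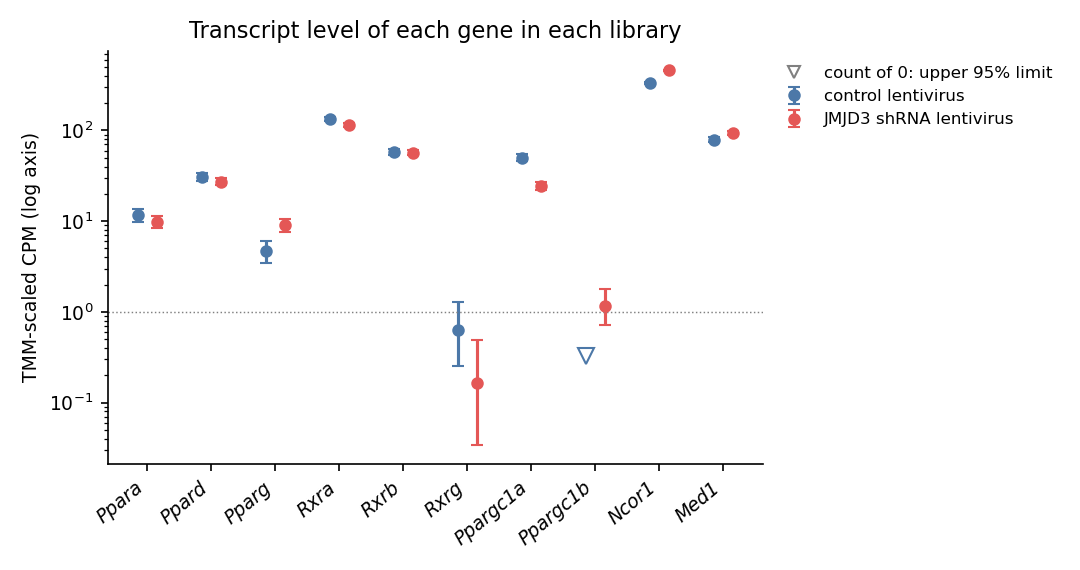
Level of each of the 10 genes in TMM-scaled CPM on a log axis, in the control library and the JMJD3 shRNA library, with exact 95% Poisson intervals of the counts as bars. The dotted line marks 1 CPM, and the open triangle is the upper limit for Ppargc1b, which had 0 counts in control. Ppargc1a is lower and Pparg higher in the JMJD3 shRNA library with intervals that do not meet, and Rxrg lies below 1 CPM in both.

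The start regions of the 2 measured genes that passed, Ppargc1a and Pparg, are printed because these genes moved in opposite directions in cells under forskolin, and because the counts cannot tell the Pparg starts apart. The sequences are from RefSeq in GRCm38.p6, a newer build than the mm9 of the counts, and run 5′ to 3′ from 250 bases before to 50 bases after each start. Whether a window lies at the start of the gene model that was counted was not tested. Capitals mark TGACG, the core of the cyclic AMP response element, the nuclear receptor core AGGTCA, and the TATA box letters TATAAA, each searched on both strands.
Ppargc1a, chr5:51567676-51567975, minus strand: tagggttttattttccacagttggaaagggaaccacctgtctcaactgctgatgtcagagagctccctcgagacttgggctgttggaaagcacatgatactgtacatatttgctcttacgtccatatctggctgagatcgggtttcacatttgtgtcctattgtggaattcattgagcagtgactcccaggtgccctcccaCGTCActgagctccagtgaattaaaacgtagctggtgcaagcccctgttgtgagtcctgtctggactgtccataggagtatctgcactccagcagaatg
Pparg start 1, chr6:115360894-115361193, plus strand: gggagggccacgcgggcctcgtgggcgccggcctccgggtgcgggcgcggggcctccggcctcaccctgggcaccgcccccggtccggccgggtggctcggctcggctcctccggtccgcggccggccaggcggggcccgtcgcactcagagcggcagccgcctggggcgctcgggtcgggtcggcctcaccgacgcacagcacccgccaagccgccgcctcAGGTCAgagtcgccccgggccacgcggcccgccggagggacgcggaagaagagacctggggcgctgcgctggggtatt
Pparg start 2, chr6:115362099-115362398, plus strand: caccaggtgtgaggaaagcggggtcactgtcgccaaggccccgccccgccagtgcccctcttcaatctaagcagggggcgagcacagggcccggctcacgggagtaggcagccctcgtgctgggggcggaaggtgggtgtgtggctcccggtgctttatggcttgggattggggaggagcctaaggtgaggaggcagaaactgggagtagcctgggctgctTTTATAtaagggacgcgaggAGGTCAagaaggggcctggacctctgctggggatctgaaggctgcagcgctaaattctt
Pparg start 3, chr6:115421816-115422115, plus strand: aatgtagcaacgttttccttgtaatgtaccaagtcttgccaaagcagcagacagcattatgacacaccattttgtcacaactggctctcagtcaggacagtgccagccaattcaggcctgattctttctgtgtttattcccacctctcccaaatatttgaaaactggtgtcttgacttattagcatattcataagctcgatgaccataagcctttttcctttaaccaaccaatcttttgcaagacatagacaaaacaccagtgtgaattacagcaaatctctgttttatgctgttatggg
The Ppargc1a window holds 1 TGACG core, on the other strand, whose first printed base is at position -49 from the start. The first Pparg window holds AGGTCA at position -28. The second holds AGGTCA at -9 and the TATA letters, on the other strand, at -29, and the third holds none of the motifs searched. At that place in the second window the printed strand reads TATATAAG, which the exact letters searched do not match. The capitals there thus do not settle the orientation of a TATA box. The 3 Pparg windows also differ in base composition, with 80.3%, 62.7% and 40.3% of G and C and 44, 13 and 2 CpG sites. TGACG was also found in a window of Ppara, of Ppard and of Rxrb, which did not pass the rule. AGGTCA was also found in a window of Rxra, which did not pass, and of Rxrg, under the filter. Of 32851 windows of this length in the table, 20.8% hold TGACG, 16.3% hold AGGTCA and 13.6% hold the TATA letters. The full element TGACGTCA (1.79% of windows), the AP-1 site TGACTCA (5.20%) and DR1, the PPAR and RXR repeat of AGGTCA with 1 base between copies (0.0396%), were in none of the 15 windows found for 9 of the members. Only 1 window was found for Ppargc1a, and any other start of that gene was not searched. Absence from these windows therefore does not show that a gene lacks the element. TGACG letters overlap those of the full element, and AGGTCA those of DR1.

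Among the coactivators, Ppargc1a was lower in the knockdown library and Ppargc1b was detected there alone. Ppargc1a occupies 51845488 to 51945160 of chromosome 5, minus strand, and has 13 exons. It had 563 counts in control (50.1 CPM, interval 46.0 to 54.4) and 442 in the deeper knockdown library (24.4 CPM, 22.2 to 26.8). The intervals lay far apart, and the level in the knockdown library was 0.487 of control, a log2 ratio of -1.04 (-1.22 to -0.86). Of all measured genes, 5.93% had a lower ratio. Ppargc1b, at 61457790 to 61560085 of chromosome 18, minus strand, with 12 exons, had 0 counts in control and 21 in the knockdown library. Its level in the knockdown library was 1.16 CPM (0.718 to 1.77), and the exact upper limit for 0 counts in control was 0.328 CPM. Set against a floor of 3 counts in control, 0.267 CPM, it was 4.35-fold higher. By the 95% bound that includes the error of both counts it was at least 3.23-fold higher, a log2 ratio of 1.69. Its mean of 0.580 CPM lies under the filter, so it is not among the measured genes. Without the filter it passes as higher, as 12.1% of the 16887 genes with a count do.

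The balance of the PGC-1 genes therefore differed between the libraries. Ppargc1b made up 7.78% of the summed level of both genes in the knockdown library, at 0.796 TPM against 9.44 TPM for Ppargc1a. The ratio of Ppargc1a to Ppargc1b was at most 0.152 of its control value by the 95% bound. The related coactivator Pprc1, a relative of the family induced early by growth signals and no member of the list, had 413 and 2022 counts. Its level was 36.7 CPM in control and 112 CPM in the knockdown library, a log2 ratio of 1.60 (1.45 to 1.76). Per length, Pprc1 stood at 16.3 TPM beside 18.0 TPM for Ppargc1a in control, and at 53.5 TPM beside 9.44 TPM in the knockdown library.

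**Figure D2:**
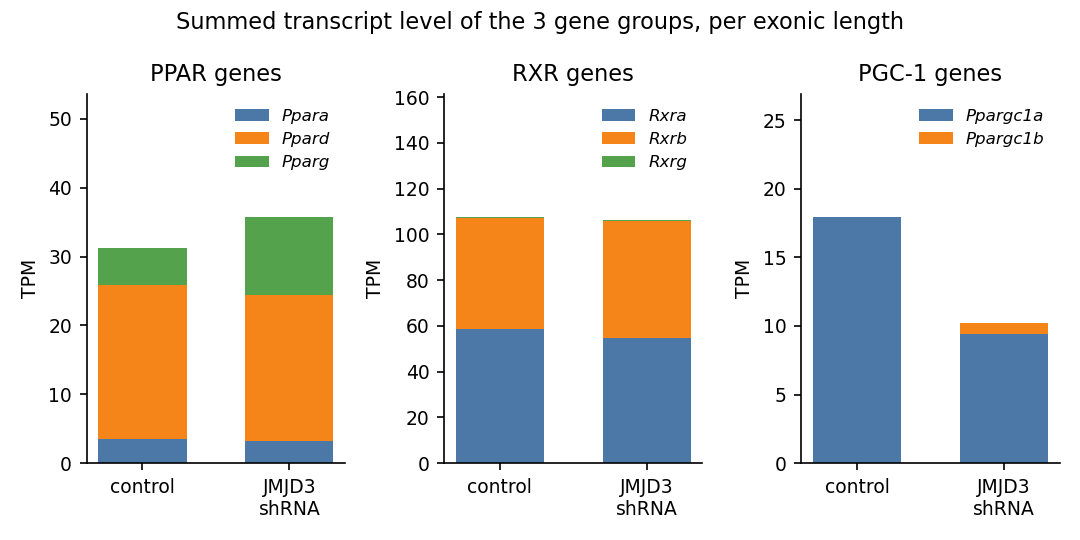
Summed TPM of the PPAR, RXR and PGC-1 genes in the control library and the JMJD3 shRNA library, split by gene, 1 library per bar. The Pparg share of the PPAR sum is 17.4% in control and 31.6% in the JMJD3 shRNA library, the RXR sum is 108 and 106 TPM, and the PGC-1 sum is 18.0 and 10.2 TPM.

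RXR transcripts differed little between the libraries. Rxra, the main RXR of liver, occupies 27532721 to 27618839 of chromosome 2, plus strand, with 10 exons, and had 1495 and 2073 counts. Its 133 CPM in control and 114 CPM in the knockdown library gave a log2 ratio of -0.22 (-0.31 to -0.12), whose interval leaves out 0 but lies within 1.5-fold. Rxrb, a broadly expressed RXR, occupies 34168757 to 34175348 of chromosome 17, plus strand, with 11 exons, and had 645 and 1028 counts. Its 57.4 and 56.8 CPM gave a log2 ratio of -0.02 with an interval of -0.16 to 0.13. Rxrg, an RXR best known from muscle and brain, occupies 169528493 to 169569754 of chromosome 1, plus strand, with 11 exons, and was under the filter with 7 and 3 counts. At 0.623 and 0.166 CPM, its log2 ratio of -1.91 had an interval of -4.49 to 0.22, and a difference was not detectable at this depth. Rxra stood at 58.8 TPM and Rxrb at 48.3 TPM in control, and at 54.6 and 51.5 TPM in the knockdown library, where their intervals overlapped. The ratio of Rxra to Rxrb was 0.870 of its control value (0.771 to 0.981). That interval included 1 when counts were divided by 2, as if both reads of each pair had been counted, on the log2 scale -0.20 (-0.45 to 0.05).

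Ncor1 and Med1 had ratios above 1 without passing the rule. Ncor1 occupies 62129928 to 62270834 of chromosome 11, minus strand, with 47 exons, and had 3752 and 8316 counts. Its 334 CPM in control and 459 CPM in the knockdown library gave a log2 ratio of 0.46 (0.40 to 0.52), an interval that excludes both no difference and 1.5-fold. Its exons share 16 bp with those of Ttc19, 0.144% of its length, so few of its reads could be affected. Med1 occupies 98013469 to 98054607 of chromosome 11, minus strand, with 19 exons, and had 885 and 1707 counts. Its 78.7 and 94.3 CPM gave a log2 ratio of 0.26 (0.14 to 0.38). Both genes are long, at 11144 and 7589 bp of exonic sequence, and the log2 ratio climbed with exonic length over all measured genes, from a trend of -0.28 at 1000 bp to 0.36 at 8000 bp. With that trend removed, Ncor1 stood at -0.02 (-0.07 to 0.04) and Med1 at -0.08 (-0.19 to 0.04), so neither differed from 0 beyond its interval. The same step moved Ppargc1a to -1.32, Rxra to -0.41 and Pparg to 1.05, with Ppargc1a still lower and Pparg still higher by the rule. The source of the length trend was not tested.

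**Figure D3:**
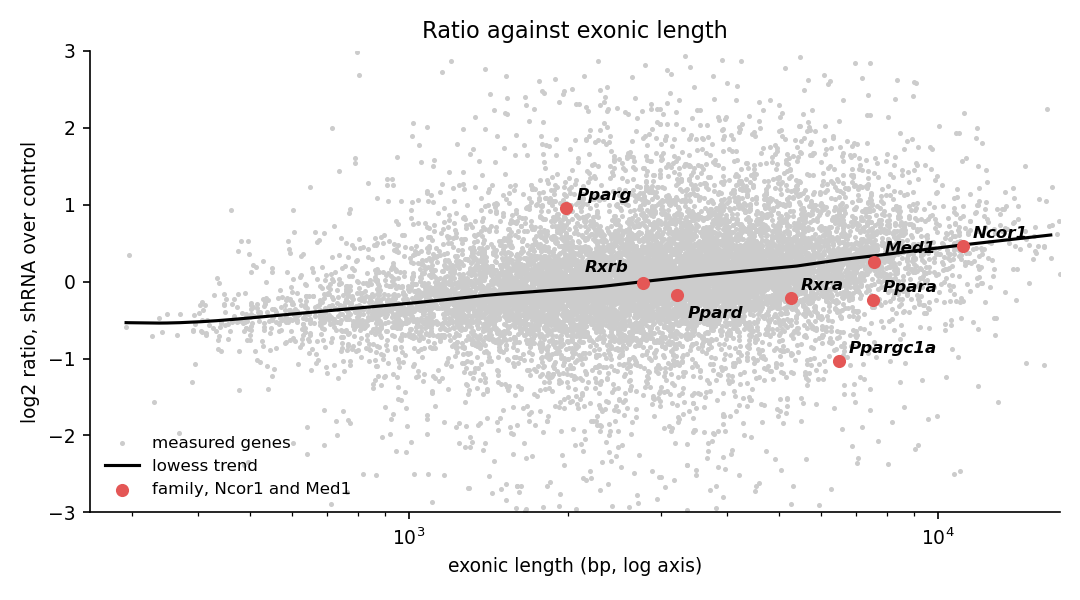
Log2 ratio of each measured gene against exonic length in bp on a log axis, with the lowess trend as a line and the 8 measured members as large points. The ratio axis ends at -3 and 3. Ncor1 and Med1 lie near the trend, Ppargc1a far below it and Pparg far above it.

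Of the 10 genes, 8 passed the filter, and 1 of these was higher, Pparg, and 1 lower, Ppargc1a. Among all 12607 measured genes, 15.3% were higher and 12.8% lower by the same rule, so these shares are close to the background and the family did not stand apart by its counts. Among genes of Pparg's abundance, 1 to 10 CPM, 18.0% were higher, and among genes of 10 to 100 CPM, the range of Ppargc1a, 10.7% were lower. The median log2 ratio of the 8 genes was -0.10, against -0.00388 over all measured genes. In the authors' deposited table, which lists 9 of the 10 genes and not Rxrg, 3 had an adjusted p-value under 0.05. In the authors' deposited table the adjusted p-value was 5.10e-05 for Ppargc1a, 0.0113 for Pparg and 0.00184 for Ppargc1b, and 0.0841 for Ncor1, which came next. That table calls 14.6% of its 12838 genes higher and 11.8% lower at this threshold, and no source used here states its test or the spread it assumes for 1 library per group.

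In control, the order of levels per length was Ncor1 at 69.8 TPM, Rxra, Rxrb, Med1 at 24.2 TPM, Ppard, Ppargc1a at 18.0 TPM, Pparg, Ppara, Rxrg at 0.614 TPM and Ppargc1b. Med1 and Ppard, and Pparg and Ppara, were neighbours whose intervals overlapped. In the knockdown library Ncor1 led at 103 TPM and Med1 stood at 31.2 TPM, while Pparg lay above Ppargc1a, with overlapping intervals, and Ppargc1b above Rxrg, also with overlapping intervals. The order of the other genes was the same.

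**Figure D4:**
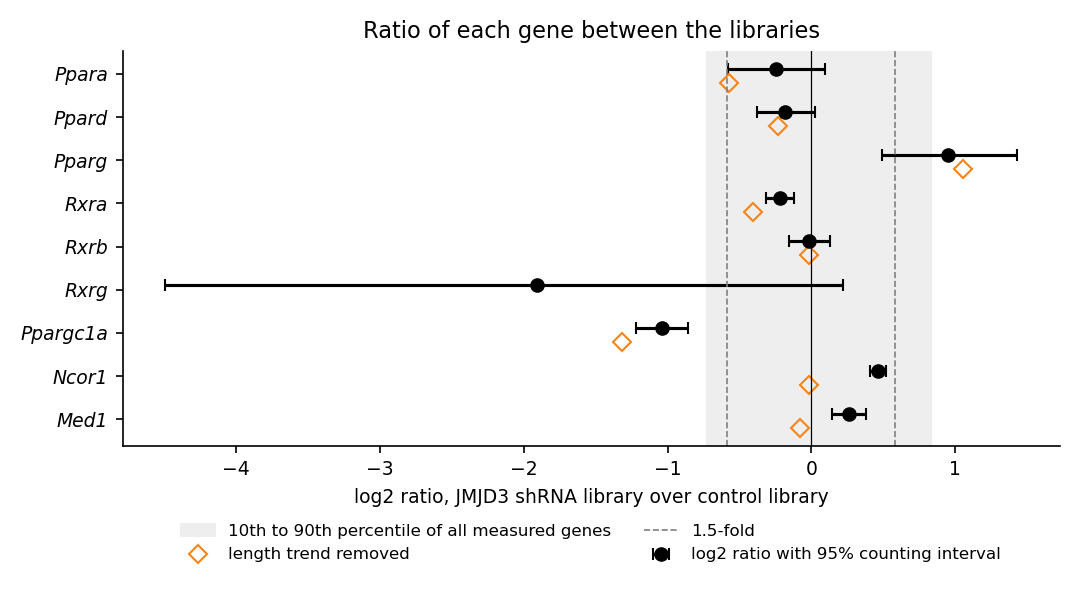
Log2 ratio, JMJD3 shRNA library over control library, of the 9 genes with counts in both libraries (circles, with exact 95% counting intervals), and of the 8 measured genes after removal of the trend with exonic length (diamonds). The grey band spans the 10th to 90th percentile of all measured genes and the dashed lines mark 1.5-fold. Ppargc1a and Pparg lie outside the band, Ncor1 and Med1 move to about 0 without the trend, and the interval of Rxrg, on 7 and 3 counts, includes 0.

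PPARalpha target genes were more often lower than higher. Of 25 measured targets, 14 were lower and 3 higher, beside 12.8% lower and 15.3% higher among all measured genes. This list and those below were chosen with earlier results of these data known, so their counts are descriptive. The median log2 ratio was -0.67, against -0.00388 over all measured genes, and 21 ratios were below 1. Cpt1a, which controls fatty acid entry into mitochondria and was among the most abundant, had 959 CPM in control and 241 CPM in the knockdown library, a log2 ratio of -1.99. Fgf21, a fasting hormone, had 20 and 7 counts and a log2 ratio of -2.20 (-3.69 to -0.90). The higher targets were Plin2, a lipid droplet coat protein, at 0.95, Vnn1, a pantetheinase, at 0.72, and Angptl4, a lipase inhibitor named after its values were seen, at 0.67. Hepatocyte markers moved in the same direction, with 3 of 5 lower and a median of -0.62, and their part in the lower targets was not tested. With a 2-fold rule, 7 targets were lower and 0 higher, beside 781 lower and 926 higher among all 12607 measured genes.

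PPARgamma targets of fat cells were more often lower than higher. Of 9 measured targets, 5 were lower and 0 higher, beside the same 12.8% and 15.3% of all measured genes. Their median was -0.69, and it was the same with Cidea set to a floor of 3 counts. Cidea, a lipid droplet protein, had 34 counts in control and 0 in the knockdown library. Set against 3 counts as the floor, it was 18.3-fold lower, and by the 95% bound that includes the error of both counts at least 14.1-fold lower. Fabp4, a fatty acid carrier of fat cells and macrophages, stood at 6.32 and 1.71 CPM, a log2 ratio of -1.88 (-2.54 to -1.26). The other lower genes, named after their values were seen, were Plin4, Lipe and Cebpa, and the first pair of these share exonic sequence with other genes, so their counts are uncertain. The fatty acid transporter Cd36 was at 0.19, the lipoprotein lipase gene Lpl at 0.25 and the abundant carrier Fabp5 at 0.05. The median turned to 0.05, with 2 genes lower, when a mean of 5 CPM was required, so the list rests on low counts.

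Most PGC-1 target genes did not pass the rule. Of 20 measured targets, 3 were lower and 0 higher, a share of lower genes near the 12.8% of all measured genes. The median was -0.35, and 15 ratios were below 1. The lowest were Sirt3, a mitochondrial deacetylase, at -0.85 and Ndufb5, a complex I subunit, at -0.67, and the third was Atp5o, an ATP synthase subunit named after its values were seen. The abundant ATP synthase gene Atp5b was at -0.39, and the highest were Gabpa and Tfb2m, transcription factors for mitochondrial genes, both at 0.23. Sirt3 and Gabpa share exonic sequence with other genes. With the length trend removed, 1 of the 20 was lower, beside 1498 of all 12607 measured genes, and the median was -0.21.

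Most receptors that pair with RXR were lower. Of 12 measured partners, 8 were lower and 2 higher, beside 12.8% lower and 15.3% higher among all measured genes, and the median was -0.85. Of the hepatocyte markers 3 of 5 were lower, with a median of -0.62, and their part in this list was not tested. The orphan receptors Nr4a2 and Nr4a1, immediate targets of cyclic AMP, stood at -3.18 (-3.62 to -2.77) and -1.16 (-1.44 to -0.88). The retinoic acid receptors Rara and Rarg were higher at 1.37 (1.19 to 1.56) and 0.66 (0.46 to 0.86). The most abundant partner, the oxysterol receptor gene Nr1h2, was at -0.32 and did not pass. Of 8 measured genes of retinoid handling, 2 were lower and 1 higher, and the median was -0.34. Rbp4, the plasma retinol carrier, was at -1.41 and Aldh1a1, an enzyme of retinoic acid synthesis, at -0.92 from 2650 CPM in control. Rdh10, which oxidises retinol, was higher at 1.97, and Dgat1 was at 0.45. With the 2-fold rule, 3 partners were lower and 1 higher, and 1 retinoid gene was lower and 1 higher. Among all 12607 measured genes, that rule called 781 lower and 926 higher.

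**Figure D5:**
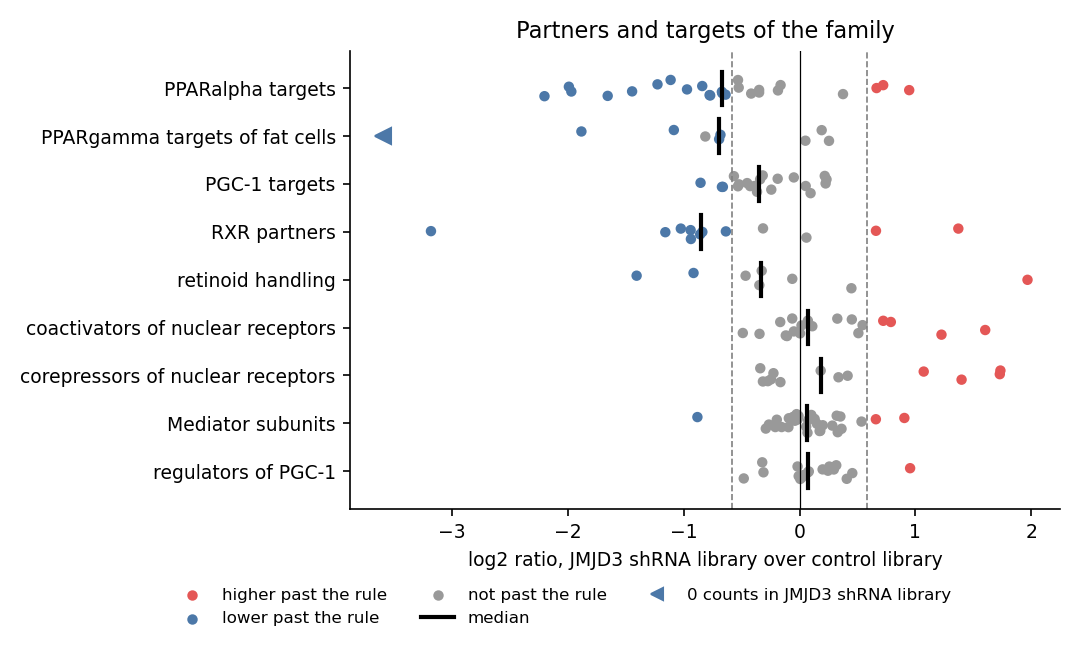
Log2 ratio of every measured gene in 9 lists of targets, partners and cofactors, with the median of each list as a black bar, genes past the rule of size coloured and 1.5-fold marked by dashed lines. The arrowhead stands for Cidea, with 0 counts in the JMJD3 shRNA library, and is not to scale. Medians run from -0.85 for RXR partners to 0.18 for corepressors.

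Cofactor lists were centred near no difference. Of 19 measured coactivators, 4 were higher and 0 lower, beside 15.3% higher and 12.8% lower among all measured genes, and the median was 0.07. Pprc1 was highest, the CBP and p300 partner Cited2 was at 1.23 and 606 CPM in the knockdown library, and Carm1 and Ncoa6, named after their values were seen, also passed. Smarcd3 and Ncoa7 were lowest at -0.49 and -0.35. Of 13 measured corepressors, 4 were higher and 0 lower, and the median was 0.18. Lcor and Hdac7 were highest, both at 1.73, with Hdac7 sharing exonic sequence with another gene. Nrip1, which encodes the corepressor RIP140, and Tbl1x, a subunit of the NCoR1 complex, both named after their values were seen, also passed. Gps2, another subunit of that complex, was at -0.34, the class IIa deacetylase gene Hdac4 at -0.32 and the abundant Hdac2 at -0.27. With the length trend removed the coactivator median was -0.01 with 3 genes higher, and the corepressor median was 0.02 with 4 genes higher and 1 lower. In that setting 1677 of all 12607 measured genes were higher and 1498 lower. Without the genes that share exonic sequence, the corepressor median was 0.01 with 3 genes higher.

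Mediator subunits other than Med1 were close to no difference. Of 32 measured subunits, 2 were higher and 1 lower, beside 15.3% higher and 12.8% lower among all measured genes, and the median was 0.06. Med13, of the kinase module, was at 0.91 (0.81 to 1.01) and Med14, the scaffold subunit, at 0.66 (0.54 to 0.78). Med28 was lower at -0.88 (-1.04 to -0.72), Med24 was at -0.29 and the abundant Med21 at -0.21. Med1 at 0.26 thus lay within the range of its complex. With the length trend removed, 1 subunit was higher and 1 lower, and with the 2-fold rule there were 0 of each.

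Beside 15.3% higher and 12.8% lower among all measured genes, known regulators of PGC-1 had 1 of 18 measured genes higher and 0 lower. Their median was 0.08. The higher gene was Mybbp1a, which encodes a repressor of PGC-1alpha, at 215 CPM in control and 417 CPM in the knockdown library (log2 0.96, interval 0.89 to 1.02). The kinase genes Mapk14 and Prkaa2 were at 0.46 and -0.48, the ubiquitin ligase gene Rnf34 at -0.32 and the abundant Akt1 at 0.25. With the length trend removed, 1 regulator was lower as well, and with the 2-fold rule 0 were higher. Striated muscle markers, where PGC-1alpha and Rxrg are known to be expressed, had 2 of 4 measured and 0 past the rule, with sums of 7.03 and 8.84 CPM and Ckm and Myh4 at 0 counts in both libraries.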

How the data were processed

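Per the labels, RNA from cultured primary mouse hepatocytes was read as 100 bp paired ends. The deposited values are whole-number counts of reads per gene from featureCounts 1.4.6-p4 on STAR alignments to mm9, per the file headers, with exons grouped by gene, strand not used and no option for read pairs recorded, so a pair can count more than once. The exonic length in bp is also deposited, per the file headers. The submitters' processing notes also name edgeR, STAR 2.5.3a, FastQC 0.11.5, Trimmomatic 0.36 and bcl2fastq 2.17.1.14. The authors' deposited table holds log2 fold changes, average log2 CPM, p-values and adjusted p-values, and its test is not given in the sources used here.

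Library sizes were scaled by TMM in edgeR 4.0.16 (R 4.3.3). Ratios have no pseudocount and carry exact conditional binomial (Clopper-Pearson) 95% intervals in scipy 1.17.1, level intervals are exact Poisson, and intervals between 2 members are conditional odds ratio intervals. Intervals and floors of 3 counts cover counting error only and are narrower than they should be if paired reads were each counted. The rule of size was 1.5-fold with an interval excluding 1, at a mean of at least 1 CPM. The calculation was run on simulated Poisson counts without variation between cultures or doubly counted read pairs. That run checks the arithmetic only and cannot show that the intervals hold for these libraries. Motifs were searched as exact letters.

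All members were named. Of each other list, the most abundant measured gene by TPM, and the 2 genes at each end of the ratios were named, and others are stated where they occur. Marker lists are given mainly as counts and sums. The members and lists were chosen with earlier results of these data known. Lists share some genes, and members were left out of them. Perm1 and Helz2 were not found under those symbols and were not analysed here. Alternatives were DESeq2 1.42.0 size factors, library totals, upper-quartile factors, no filter, a mean of 5 CPM, counts divided by 2, removal of a lowess trend with length (fraction 0.3, statsmodels 0.14.6), a 2-fold rule, and leaving out genes that share exonic sequence.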

Additional observations from a re-analysis of the deposited data

How the results depend on the processing

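Ppargc1a was lower by the rule under all 9 alternatives, with log2 ratios from -1.32 to -1.02. Pparg was higher under each of them except the 2-fold rule, with log2 ratios from 0.90 to 1.05. The filter settings and leaving out overlapping genes could not change either gene. Both have a mean above 5 CPM and share no exonic sequence with another gene. The count of members called higher was 0 with the 2-fold rule and 2 without the filter on low counts, which adds Ppargc1b, and the count called lower was 1 throughout. With counts divided by 2, the bound of Ppargc1b was a log2 ratio of 0.64. Over all genes, the 2-fold rule called 926 higher and 781 lower, against 1924 and 1612 at 1.5-fold. With the length trend removed, 1677 of the 12607 measured genes were higher and 1498 lower. With a mean of 5 CPM required, 1596 of 10670 genes were higher and 1214 lower. Without genes that share exonic sequence, 1729 of 11072 were higher and 1452 lower. The scalings placed the median log2 ratio of measured genes between -0.05 and 0.01. Leaving out overlapping genes removes Ncor1, so that alternative gives it no value. Depth limits Rxrg and Ppargc1b most, with 7 and 3 and with 0 and 21 counts. No paired analysis was possible because each group is 1 library, and for the same reason no library could be left out.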
